A study of Mus musculus with 17 samples.

Results

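The genes described are 46 collagens and other genes of the extracellular matrix, taken from a table of 38087 genes. They were chosen by symbol as known matrix genes, with earlier results of these data known, and kept if their log2 value reached 5 in at least 1 of 6 columns. All 46 were found, each on 1 row, and all 46 passed. The member with the lowest maximum was Fmod, at 6.39, so none lay just outside the threshold. By role they were 12 fibrillar collagens and collagens bound to fibrils, 10 genes of basement membranes and vessel walls, 7 proteoglycans and their partners, 6 elastic fibre genes, 6 adhesive and matricellular genes, and 5 genes of crosslinking, processing and folding. Col6a1, Col6a2 and Col6a3, the chains of a beaded filament, were placed in the first class and are counted in it wherever it is named fibrillar or fibril-bound.

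Expression was measured by RNA sequencing in myeloid cells sorted from tibialis anterior muscle of DBA/2J mice. All mice were male and 3 months old, and every group came from muscle injured with cardiotoxin, a toxin from snake venom used to destroy muscle fibres and start their regeneration. Of the 17 samples, 2 held neutrophils of day 1 after injury, and there were 3 for each day and subset of macrophages, which were Ly6C high on day 1 and both high and low in Ly6C on days 2 and 4. Uninjured muscle and sorted fibroblasts were not analysed here, and the labels do not say whether a sample is 1 animal or a pool. Each group has a single deposited column of log2 normalised reads, a mean made by the authors over its samples. Hence no value below has an error, a replicate check or a p-value, and no difference can be set against the variation among mice. Differences of at least 2-fold, or 1 on the log2 scale, were counted among genes with a log2 value of at least 5 in 1 of the groups compared. The first count of members in each comparison is set beside the share of all compared genes that were as far apart. A gene that reaches 5 only in the group where it is high had to differ, so the number at 5 in both groups is given too. No share of all genes was counted under that stricter filter. Every share of all genes given below refers to genes at 5 in at least 1 of the groups compared. Total reads per sample cannot be had from these means.

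The extracellular matrix is the protein scaffold around cells. Fibrillar collagens form the cables of connective tissue, basement membranes wrap muscle fibres and vessels, and small leucine-rich proteoglycans, elastic fibres and crosslinking enzymes set the spacing and stiffness of the cables. In muscle its main makers are known to be fibroblast-like stromal cells, with endothelial cells and pericytes adding basement membrane, whereas macrophages are known for fibronectin, versican and thrombospondin-1. After injury a temporary matrix rich in fibronectin is laid down and later replaced.

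The columns were checked against markers of the sorted and of other cells. Csf1r, the macrophage growth factor receptor, was at 13.27 in neutrophils, 13.52, 13.52 and 14.06 in Ly6C high cells, and 13.31 and 14.71 in Ly6C low cells. Here and below, Ly6C high values are given in the order of days 1, 2 and 4 and Ly6C low values in the order of days 2 and 4. Csf1r differed by 0.25 between the neutrophil column and Ly6C high cells of day 1, and whether macrophage RNA is present in that column was not tested. Ly6c2, which encodes the sorted antigen, was at 6.70 in neutrophils, 9.65, 9.87 and 10.56 in Ly6C high cells, and 6.16 and 4.64 in Ly6C low cells. Pdgfra, the defining receptor of muscle stromal fibroblasts, was at 0.63 in neutrophils, 3.52, 4.25 and 8.44 in Ly6C high cells, and 1.88 and 6.13 in Ly6C low cells. Of 28 fibroblast markers outside the matrix, 6, 3, 2, 7, 1 and 1 were listed at 0 in neutrophils, Ly6C high cells of days 1 and 2, Ly6C low cells of day 2, and Ly6C high and low cells of day 4. The 1 at 0 in both day 4 columns, Tcf21, which encodes a stromal transcription factor, was at 0 in all 6. The summed level of the list, without Lrp1, Gsn and Igfbp4, which were high in all 6 columns and were set aside after their values were seen, was 532, 1151, 1243, 370, 6570 and 1002 normalised reads in the same order. With these 3 genes the sum was 31469, 27173, 30453, 30072, 38749 and 36521. Counts and median differences of fibroblast markers below include these 3 genes. The 15 endothelial markers, none at 0 in any column, summed to 902, 1283, 1178, 589, 6881 and 903. The 14 pericyte and smooth muscle markers, of which 2 were listed at 0 in Ly6C low cells of day 2, summed to 339, 694, 641, 529, 4396 and 1171. The summed levels of the fibroblast, endothelial, and pericyte and smooth muscle lists were therefore highest in the day 4 Ly6C high column. That column also held the highest value of 44 of the 46 members, a count not made over all genes. Sums of the tendon, Schwann cell and myogenic lists were not highest there. The 9 tendon cell markers, Fmod among them, summed to 6554 in neutrophils, where 1 gene was at a log2 value of 12.65. They summed to 6293 in Ly6C high cells of day 4, where the highest gene was at 12.19. The median level of the tendon list, unlike its sum, was highest in Ly6C high cells of day 4, at 4.89. It was 4.72 in Ly6C low cells of day 4 and 0.52 in neutrophils. The 8 Schwann cell markers summed to 1247 in neutrophils and 551 in Ly6C high cells of day 4. The 12 myogenic markers summed to 134 in Ly6C high and 467 in Ly6C low cells of day 4. The part of other cells in the values below was not tested, and in bulk samples fewer cells of a type and less RNA per cell cannot be told apart.

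**Figure D1:**
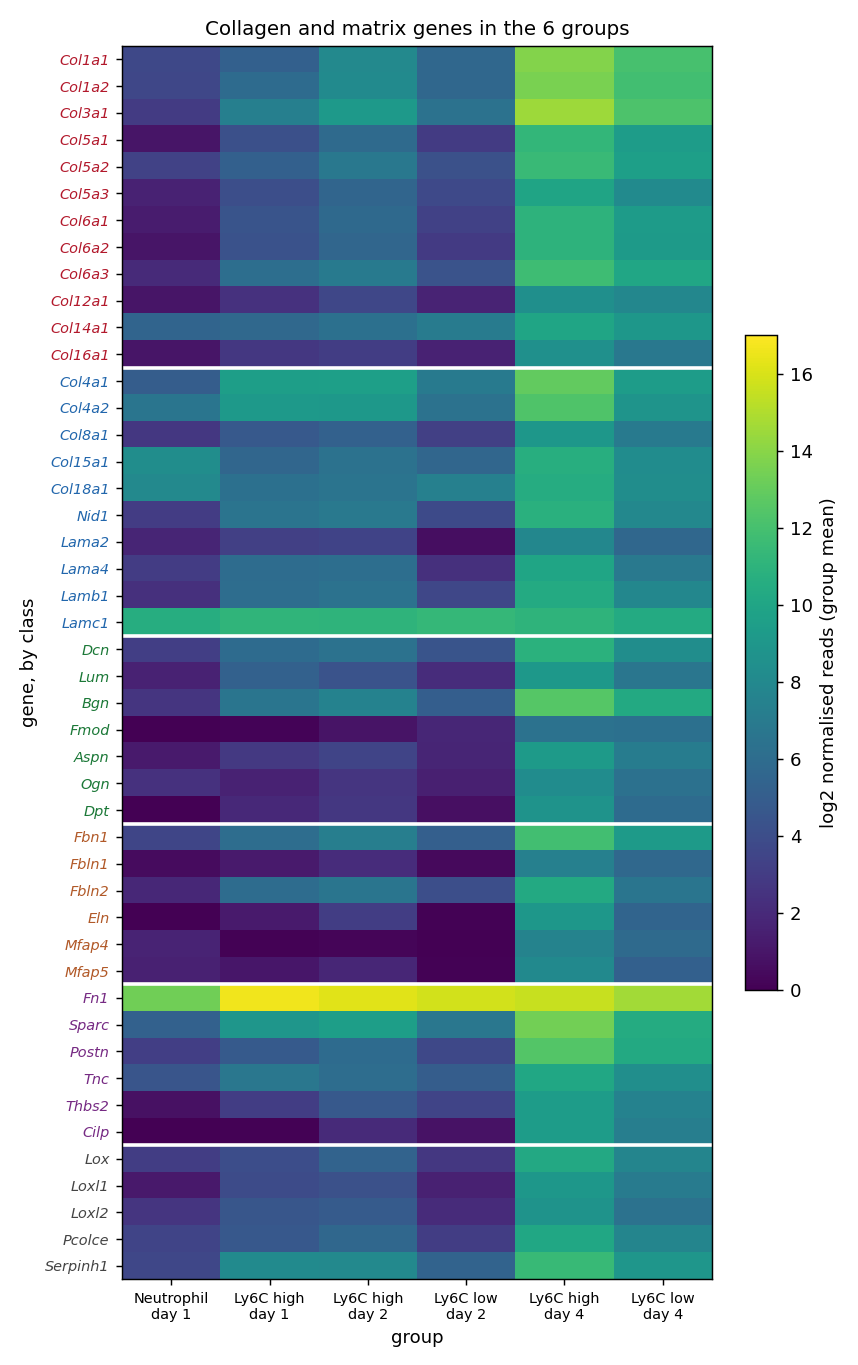
Log2 normalised reads (colour, authors' group mean) of the 46 matrix genes (rows, grouped by class with white lines between classes) in the 6 groups (columns). The Ly6C high column of day 4 is the brightest for 44 genes, while Fn1 and Lamc1 are bright in all 6 columns.

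Most members had the same columns at the top. Ly6C high cells of day 4 were highest for 44 members and by at least 2-fold over every other column for 41. Ly6C low cells of day 4 came next for 41, the other 5 being Col4a1, Col4a2, Col15a1, Lamc1 and Fn1. The share of all genes highest in each column was not counted. Over all genes compared, 14.3% were at least 2-fold higher in Ly6C high cells on day 4 than on day 2 and 2% lower. On day 4, 8.93% were at least 2-fold lower in Ly6C low than in Ly6C high cells and 2.44% higher. Members that reach 5 only on day 4 passed the filter through these columns. The neutrophil column was lowest for 33, Ly6C low cells of day 2 for 10, Ly6C high cells of day 1 for 2, and Ly6C low cells of day 4 for 1. A log2 value of 5 was reached by 8 members in neutrophils, by 23 and 30 in Ly6C high cells of days 1 and 2, by 15 in Ly6C low cells of day 2 and by all 46 in both day 4 columns. The median over the 46 was 2.65 in neutrophils, 4.99, 5.93 and 10.31 in Ly6C high cells and 3.58 and 8.03 in Ly6C low cells.

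As a share of all normalised reads, the members took 0.110% in neutrophils, 0.933, 0.796 and 1.74% in Ly6C high cells and 0.615 and 0.505% in Ly6C low cells. Fn1 alone accounted for most of this before day 4. Without Fn1 the shares were 0.0226%, then 0.0500, 0.0692 and 1.26%, then 0.0376 and 0.271%. The fibrillar class alone went from 0.0154% of reads in Ly6C high cells of day 2 to 0.640% on day 4. These shares, and the marker sums above, were made from the group means of log2 values, turned back to reads and then summed. They are therefore not shares of the reads of any single library. A long transcript weighs more in them than a short one.

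**Figure D2:**
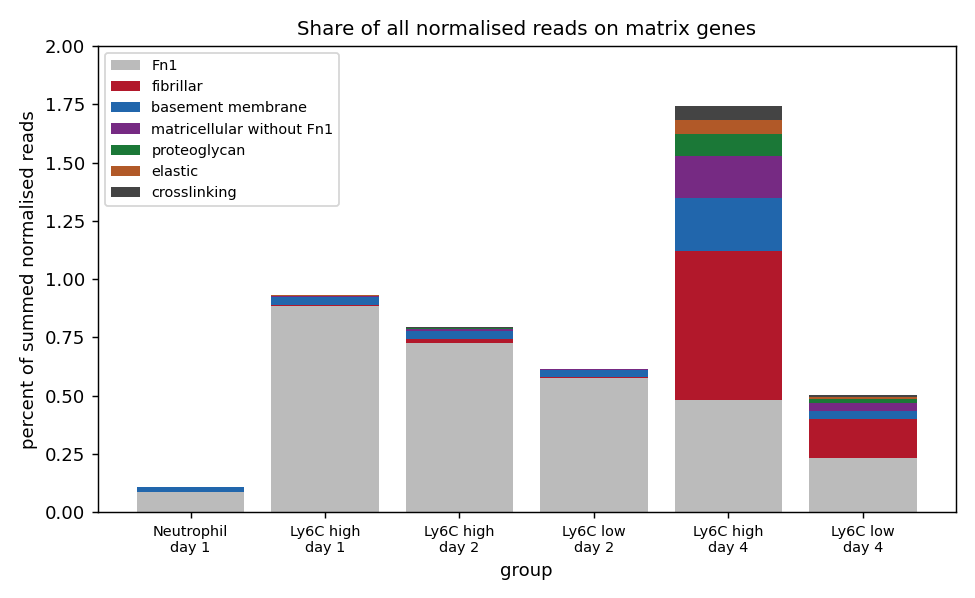
Percent of the summed normalised reads of each column (vertical axis) that fell on the 46 matrix genes, stacked by class with Fn1 shown apart, in the 6 groups (horizontal axis). Log2 group means were turned back to reads before summing. Fn1 takes most of the bar up to day 2, and the fibrillar class takes 0.640% in Ly6C high cells of day 4.

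For 31 of the 46 members RefSeq promoter windows on GRCm38.p6 were matched by symbol. Those of Lum, Loxl1, Col1a1, Lama4, Lox, Lamc1, Loxl2, Dcn, Fn1, Mfap4, Col5a2, Eln, Mfap5, Col12a1 and Col14a1 were not matched. The 250 bases before the start of 4 members are printed because these genes, 2 fibrillar collagens and 2 matricellular genes, had the same 3 columns at the top and were higher by 4.68 to 6.47 on day 4 than on day 2 in Ly6C high cells. They were picked after their values were seen. Capitals mark the TATA motif (TATAAA), the CAAT box motif (CCAAT) and the GC box motif (GGGCGG) or, where they lie on the other strand, their reverse complements, and each line runs 5′ to 3′ towards the start.
Col3a1, chr1:45311288-45311537, plus strand: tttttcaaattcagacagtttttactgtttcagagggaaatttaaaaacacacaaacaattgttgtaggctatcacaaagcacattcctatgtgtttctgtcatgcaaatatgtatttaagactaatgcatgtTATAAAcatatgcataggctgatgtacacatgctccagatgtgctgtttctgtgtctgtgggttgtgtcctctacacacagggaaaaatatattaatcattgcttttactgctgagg
Col5a1, chr2:27886175-27886424, plus strand: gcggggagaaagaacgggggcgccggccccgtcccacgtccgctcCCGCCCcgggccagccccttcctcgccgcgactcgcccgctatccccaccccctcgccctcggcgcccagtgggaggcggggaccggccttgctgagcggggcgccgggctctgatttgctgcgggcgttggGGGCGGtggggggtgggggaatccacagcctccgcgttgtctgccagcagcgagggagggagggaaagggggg
Postn, chr3:54360857-54361106, plus strand: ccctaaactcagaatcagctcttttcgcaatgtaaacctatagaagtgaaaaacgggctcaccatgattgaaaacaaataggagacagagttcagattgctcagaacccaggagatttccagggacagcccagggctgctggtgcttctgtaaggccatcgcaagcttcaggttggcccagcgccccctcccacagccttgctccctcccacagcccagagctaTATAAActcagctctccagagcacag
Thbs2, chr17:14694263-14694512, minus strand: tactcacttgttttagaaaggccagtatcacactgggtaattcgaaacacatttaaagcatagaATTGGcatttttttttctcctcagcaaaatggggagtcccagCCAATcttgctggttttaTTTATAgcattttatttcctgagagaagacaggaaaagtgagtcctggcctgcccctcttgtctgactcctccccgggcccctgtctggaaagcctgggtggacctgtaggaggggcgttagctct

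The 4 windows differed in base composition. Their GC content was 35.2% for Col3a1, 76.4% for Col5a1, 52.0% for Postn and 46.8% for Thbs2, against a median of 52.4% over 32851 windows of all genes. Postn, the second of its 2 RefSeq starts being shown, has TATAAA 26 bases before the start, and Col3a1 has it 117 bases before. Col5a1 holds GGGCGG and no TATAAA, and Thbs2 holds CCAAT and TATAAA. Over the 36 windows of the 31 members, TATAAA was found in 7 (12.4% of all windows), CCAAT in 10 (33.8% of all) and GGGCGG in 19 (32.7% of all). A match is only a run of letters, and no use of it in these cells was measured.

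Type I and III collagens are the bulk of fibrous scar. Col1a1 (ENSMUSG00000001506, chromosome 11, 94936224 to 94953042, GRCm38), the main chain of type I collagen, was at 3.69 in neutrophils, 5.18, 8.003 and 13.83 in Ly6C high cells, and 5.68 and 12.07 in Ly6C low cells. Its partner chain Col1a2 was at 3.65 in neutrophils, 5.92, 8.16 and 13.57 in Ly6C high cells, and 5.69 and 11.85 in Ly6C low cells. Col3a1 (ENSMUSG00000026043, chromosome 1, 45311538 to 45349706), the type III collagen of young granulation tissue, was at 2.96 in neutrophils, 7.34, 9.17 and 14.51 in Ly6C high cells, and 6.41 and 12.27 in Ly6C low cells. In all 3 genes the day 4 columns stood apart from the 4 earlier ones, and Ly6C high cells of day 2 were the highest of those 4.

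The type V chains, which nucleate collagen fibrils, had the same 3 columns at the top, the day 4 columns and then Ly6C high cells of day 2. Col5a1 was at 0.99 in neutrophils, 4.13, 5.90 and 11.28 in Ly6C high cells, and 2.96 and 9.41 in Ly6C low cells. Col5a2 was at 3.37 in neutrophils, 5.18, 6.78 and 11.52 in Ly6C high cells, and 4.24 and 9.57 in Ly6C low cells. Col5a3 was at 1.63 in neutrophils, 4.07, 5.55 and 9.95 in Ly6C high cells, and 3.75 and 8.11 in Ly6C low cells. The 3 chains of type VI collagen, the beaded filament around muscle fibres, had them too. Col6a1 was at 1.26 in neutrophils, 4.41, 5.79 and 10.96 in Ly6C high cells, and 3.28 and 9.30 in Ly6C low cells. Col6a2 was at 0.97 in neutrophils, 4.26, 5.64 and 10.98 in Ly6C high cells, and 2.86 and 9.25 in Ly6C low cells. Col6a3 was at 2.01 in neutrophils, 6.15, 6.94 and 11.75 in Ly6C high cells, and 4.38 and 10.06 in Ly6C low cells. In Ly6C high cells the day 4 value was above the day 2 value by 5.18, 5.33 and 4.804 for the 3 chains.

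Collagens XII, XIV and XVI decorate fibril surfaces or link them to other matrix. Col12a1 was at 0.99 in neutrophils, 2.44, 3.59 and 8.49 in Ly6C high cells, and 1.69 and 7.88 in Ly6C low cells. Col16a1 was at 0.96 in neutrophils, 2.77, 3.10 and 8.52 in Ly6C high cells, and 1.64 and 6.84 in Ly6C low cells. On day 4 Col12a1 differed by only 0.61 between Ly6C high and low cells. Col14a1 had another profile, at 5.49 in neutrophils, 5.77, 6.29 and 9.996 in Ly6C high cells, and 7.09 and 9.03 in Ly6C low cells. It was the 1 gene of its class with a higher value in Ly6C low than in Ly6C high cells of day 2, by 0.80, which is under 2-fold.

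Basement membrane genes differed less between days 2 and 4 of Ly6C high cells than fibrillar genes did, with medians of 3.85 and 5.25. Col4a1 (ENSMUSG00000031502, chromosome 8, 11198423 to 11312826) and Col4a2 (chromosome 8, 11312805 to 11449287), the 2 chains of the type IV network, lie head to head on opposite strands and share 22 bases at their starts, where reads cannot be told apart without strand. Col4a1 was at 5.005 in neutrophils, 9.52, 9.62 and 12.93 in Ly6C high cells, and 7.01 and 9.41 in Ly6C low cells. Col4a2 was at 6.61 in neutrophils, 9.21, 9.06 and 12.34 in Ly6C high cells, and 6.42 and 8.81 in Ly6C low cells. In both, Ly6C low cells of day 4 were a little below Ly6C high cells of day 2, unlike the fibrillar chains.

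Among the laminin chains, which start basement membrane assembly, Lama2 is the chain of the muscle fibre sheath and was at 1.78 in neutrophils, 3.24, 3.44 and 7.86 in Ly6C high cells, and 0.63 and 5.69 in Ly6C low cells. Lama4, the chain of vessel walls, was at 3.03 in neutrophils, 6.03, 6.15 and 9.99 in Ly6C high cells, and 2.38 and 6.88 in Ly6C low cells. Lamb1 was at 2.34 in neutrophils, 6.05, 6.43 and 10.38 in Ly6C high cells, and 3.65 and 7.89 in Ly6C low cells. Lamc1, the gamma chain that most laminins contain, was nearly level at 10.62 in neutrophils, 11.11, 11.04 and 11.06 in Ly6C high cells, and 11.35 and 10.41 in Ly6C low cells, within 2-fold over all 6 columns. Nid1, the nidogen that bridges laminin and collagen IV, was at 2.99 in neutrophils, 6.52, 6.90 and 10.77 in Ly6C high cells, and 3.83 and 7.95 in Ly6C low cells.

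Collagens VIII, XV and XVIII are found in vessel walls and basement membrane zones. Col8a1 was at 2.78 in neutrophils, 4.74, 5.28 and 9.01 in Ly6C high cells, and 3.21 and 6.99 in Ly6C low cells. Col15a1 was at 8.30 in neutrophils, 5.59, 6.39 and 10.63 in Ly6C high cells, and 5.60 and 8.24 in Ly6C low cells. Col18a1, whose end fragment is endostatin, was at 8.02 in neutrophils, 6.31, 6.54 and 10.49 in Ly6C high cells, and 7.43 and 8.32 in Ly6C low cells. Col15a1 and Col18a1 were higher in neutrophils than in Ly6C high cells of day 1, by 2.71 and 1.72. They were the members at least 2-fold higher there among the 23 compared. Col18a1 was also higher in Ly6C low than in Ly6C high cells on day 2 (by 0.89) and lower by 2.17 on day 4.

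Small leucine-rich proteoglycans bind collagen and set fibril width. Decorin, encoded by Dcn, was at 3.15 in neutrophils, 5.97, 6.42 and 10.88 in Ly6C high cells, and 4.40 and 8.31 in Ly6C low cells. Biglycan, encoded by Bgn, was at 2.65 in neutrophils, 6.57, 7.53 and 12.49 in Ly6C high cells, and 5.09 and 10.31 in Ly6C low cells. Lumican, encoded by Lum, was at 1.65 in neutrophils, 5.28, 4.34 and 9.05 in Ly6C high cells, and 2.14 and 6.69 in Ly6C low cells. In Ly6C high cells Bgn was higher on day 2 than on day 1 by 0.96, as the fibrillar chains were, while Lum was lower by 0.94.

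Asporin and osteoglycin, encoded by Aspn and Ogn on chromosome 13, were under 5 until day 4. Aspn was at 1.200 in neutrophils, 2.82, 3.46 and 9.24 in Ly6C high cells, and 1.73 and 7.14 in Ly6C low cells. Ogn was at 2.44 in neutrophils, 1.61, 2.63 and 8.28 in Ly6C high cells, and 1.51 and 6.36 in Ly6C low cells. Dermatopontin, a decorin partner encoded by Dpt, was at 0 in neutrophils, 1.94, 2.77 and 8.71 in Ly6C high cells, and 0.70 and 5.96 in Ly6C low cells. Fibromodulin, encoded by Fmod and abundant in tendon, was at 0 in neutrophils, 0.17, 0.87 and 6.39 in Ly6C high cells, and 1.83 and 6.28 in Ly6C low cells. Fmod was the member whose 2 day 4 values were closest, 0.10 apart.

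Some elastic fibre genes were near the floor before day 4. Fibrillin-1, encoded by Fbn1 and the core of microfibrils, was at 3.54 in neutrophils, 6.11, 7.25 and 11.87 in Ly6C high cells, and 5.16 and 9.26 in Ly6C low cells. Elastin, encoded by Eln, was at 0 in neutrophils, 1.21, 3.11 and 9.02 in Ly6C high cells, and 0.09 and 5.45 in Ly6C low cells. The microfibril glycoprotein gene Mfap4 was at 1.70 in neutrophils, 0.11, 0.26 and 7.63 in Ly6C high cells, and 0 and 5.87 in Ly6C low cells. Before day 4 elastin and Mfap4 thus rested on few reads. Mfap5, of a related microfibril protein, was at 1.54 in neutrophils, 1.05, 1.80 and 8.10 in Ly6C high cells, and 0.10 and 5.20 in Ly6C low cells. Mfap4 and Mfap5 were under 2 in every column up to day 2. Fbln1, a fibulin of elastic fibres and basement membranes, was at 0.47 in neutrophils, 1.24, 2.17 and 7.43 in Ly6C high cells, and 0.44 and 5.74 in Ly6C low cells. Fbln2, a fibulin also found in vessel walls, was at 1.87 in neutrophils, 5.98, 6.62 and 10.33 in Ly6C high cells, and 4.08 and 6.63 in Ly6C low cells. Values near 0 rest on a few reads, and a difference from such a value is understated by the floor at 0.

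Adhesive and matricellular proteins tune how cells attach. Periostin, encoded by Postn and typical of activated fibroblasts, was at 3.13 in neutrophils, 4.81, 5.95 and 12.43 in Ly6C high cells, and 3.67 and 10.35 in Ly6C low cells. SPARC, a collagen-binding glycoprotein encoded by Sparc, was at 5.31 in neutrophils, 8.96, 9.51 and 13.38 in Ly6C high cells, and 6.73 and 10.43 in Ly6C low cells. Tenascin-C, encoded by Tnc and known from injured tissue, was at 4.46 in neutrophils, 6.76, 6.06 and 10.10 in Ly6C high cells, and 5.01 and 8.41 in Ly6C low cells. Postn was higher by 6.47 on day 4 than on day 2 in Ly6C high cells, and Tnc by 4.03, after a day 2 value that was lower by 0.70 than that of day 1.

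Thbs2, which encodes thrombospondin-2 and limits vessel growth, was at 0.76 in neutrophils, 3.08, 4.74 and 9.42 in Ly6C high cells, and 3.51 and 7.52 in Ly6C low cells. Cilp, which encodes a cartilage and interstitial matrix protein, was at 0 in neutrophils, 0.09, 2.05 and 9.38 in Ly6C high cells, and 0.80 and 7.29 in Ly6C low cells. Cilp had the largest difference of all members between days 4 and 1 of Ly6C high cells, 9.29, measured from a day 1 value of 0.09 that is close to the floor.

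Fibronectin differed from the other members. Fn1 (ENSMUSG00000026193, chromosome 1, 71585520 to 71653200), the early adhesive glycoprotein of wounds, was at 13.29 in neutrophils, 16.64, 16.26 and 15.59 in Ly6C high cells, and 15.85 and 14.62 in Ly6C low cells. It was highest in Ly6C high cells of day 1 and lower in each later Ly6C high column, by 1.05 from day 1 to day 4, and it was the 1 member at least 2-fold lower in that comparison. In Ly6C low cells it was lower by 1.23 on day 4 than on day 2. Read shares of Fn1 were 0.0878% in neutrophils, 0.883, 0.727 and 0.482% in Ly6C high cells, and 0.577 and 0.234% in Ly6C low cells.

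Of 12 matrix genes known to be made also by myeloid cells, 6 were at least 2-fold lower and 1 higher on day 4 than on day 2 in Ly6C high cells, with a median difference of -0.83. All 12 were at 5 or above on both days, and over all genes 2% were lower and 14.3% higher. Versican, encoded by Vcan, was at 10.77 in neutrophils, 14.21, 13.35 and 11.07 in Ly6C high cells, and 10.22 and 7.64 in Ly6C low cells. Thrombospondin-1, encoded by Thbs1, was at 13.34 in neutrophils, 16.50, 15.71 and 13.76 in Ly6C high cells, and 14.15 and 11.64 in Ly6C low cells. The gene of the TGF-beta-induced matrix protein, Tgfbi, was at 13.74 in neutrophils, 15.24, 15.30 and 13.69 in Ly6C high cells, and 13.69 and 12.94 in Ly6C low cells. These 3 genes were lower on day 4 than on days 1 and 2 of Ly6C high cells. Osteopontin, encoded by Spp1, had another profile, at 14.78 in neutrophils, 13.79, 16.54 and 15.11 in Ly6C high cells, and 17.72 and 16.18 in Ly6C low cells. It was lower on day 4 than on day 2 but higher than on day 1, and higher in Ly6C low than in Ly6C high cells on both days. The 1 higher gene was Cyr61, at 9.24 against 5.87, which endothelial cells and fibroblasts also make. Col6a6, a collagen that was not among the members, was higher in Ly6C low than in Ly6C high cells, at 6.601 against 4.24 on day 2 and 6.73 against 5.41 on day 4.

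**Figure D3:**
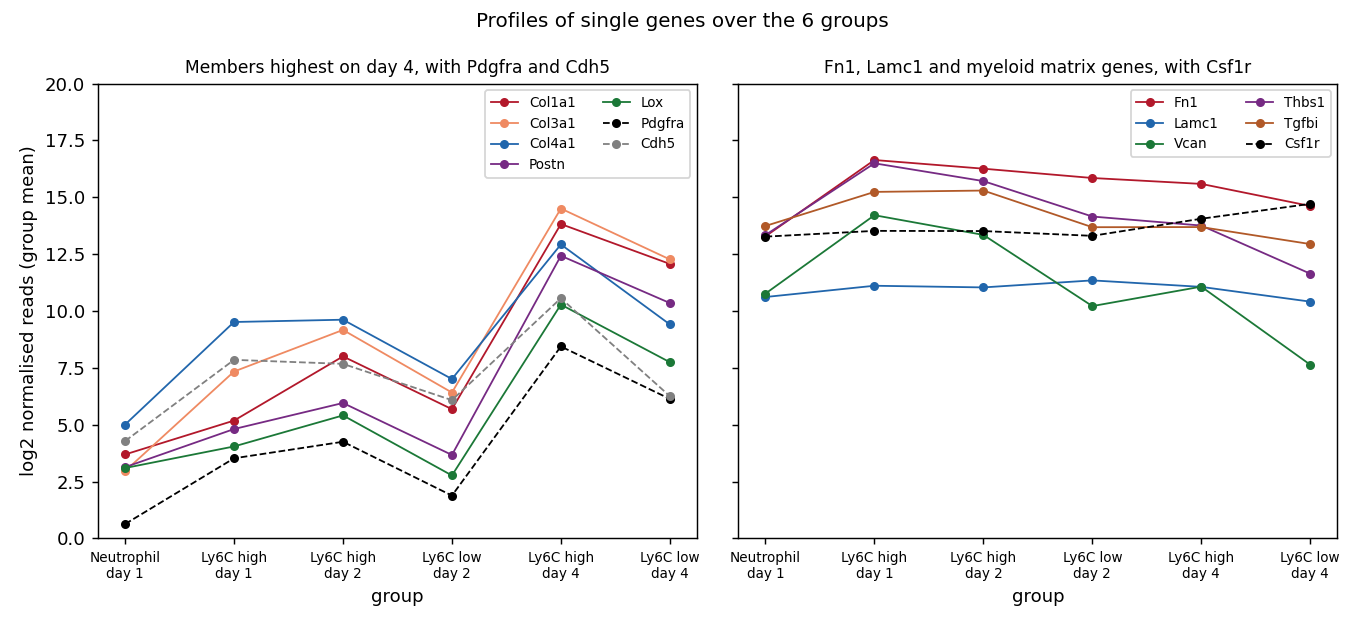
Level of single genes (vertical axis, log2 normalised reads not divided by length) in the 6 groups (horizontal axis), as group means from the authors without error bars, joined by lines to guide the eye. On the left, Col1a1, Col3a1, Col4a1, Postn and Lox are highest in Ly6C high cells of day 4, as are Pdgfra and Cdh5. On the right, Fn1, Vcan and Thbs1 are highest in Ly6C high cells of day 1, and Lamc1 is nearly level.

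Crosslinking and processing genes were also highest in Ly6C high cells of day 4. Lysyl oxidase, encoded by Lox, joins collagen chains covalently and was at 3.09 in neutrophils, 4.04, 5.41 and 10.28 in Ly6C high cells, and 2.77 and 7.75 in Ly6C low cells. Its relative Loxl1, which acts on elastin, was at 1.13 in neutrophils, 3.89, 4.24 and 9.01 in Ly6C high cells, and 1.59 and 7.06 in Ly6C low cells. Loxl2, which acts on collagen IV, was at 2.65 in neutrophils, 4.55, 4.91 and 8.71 in Ly6C high cells, and 2.10 and 6.40 in Ly6C low cells. All 3 were lowest in neutrophils or in Ly6C low cells of day 2. Pcolce, which speeds removal of the collagen propeptide, was at 3.47 in neutrophils, 4.68, 5.65 and 10.12 in Ly6C high cells, and 3.07 and 7.71 in Ly6C low cells. Serpinh1, the collagen chaperone HSP47, was at 3.65 in neutrophils, 8.11, 8.01 and 11.45 in Ly6C high cells, and 5.41 and 8.95 in Ly6C low cells. Serpinh1 differed little between days 1 and 2 of Ly6C high cells and was higher by 3.44 on day 4 than on day 2.

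Of the enzymes that hydroxylate, glycosylate and trim collagen, 20 were compared between days 4 and 2 of Ly6C high cells. There were 14 at least 2-fold higher and none lower, with a median of 1.98, where over all genes 14.3% were higher and 2% lower. Of the 11 at 5 or above on both days, 5 were higher, and the other 9 were compared only through their day 4 value. The prolyl hydroxylase subunit P4ha3 was at 6.18 against 1.11, and Adamts2, a proteinase that trims procollagen, at 8.59 against 3.74. P4hb, the beta subunit of prolyl hydroxylase and a general folding enzyme, was at 13.49 against 14.18, and Ppib, a prolyl isomerase of the same compartment, at 11.64 against 11.78, both within 2-fold.

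Of 18 collagen and matrix receptors compared between the same columns, 5 were at least 2-fold higher and 2 lower, again beside 14.3% and 2% of all genes. Of the 15 at 5 or above on both days, 2 were higher and 2 lower. Mrc2, the collagen uptake receptor of stromal cells, was at 8.96 against 3.30, and Itga11, an integrin subunit that binds fibrillar collagen, at 5.21 against 0.90. The 2 lower genes were Mrc1, the mannose receptor of macrophages, at 12.84 against 14.33, and the integrin subunit Itga1, at 7.90 against 8.95. In the TGF-beta pathway, which is known to drive collagen genes in fibroblasts, 7 of 16 genes were higher and 1 lower on day 4 than on day 2, or 4 and 1 of the 13 at 5 or above on both days. Tgfb1, the main ligand, was at 11.64 in neutrophils, 12.25, 12.16 and 12.09 in Ly6C high cells, and 11.60 and 12.25 in Ly6C low cells, while its target Ctgf was at 1.201 in neutrophils, 4.47, 4.71 and 8.69 in Ly6C high cells, and 2.25 and 6.03 in Ly6C low cells.

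Chain partners were compared per kilobase of their longest principal transcript, as a log2 difference between the genes within a column. Col1a1 minus Col1a2 was 0.11 and 0.07 in Ly6C high and low cells of day 4, and -0.89 and -0.31 in Ly6C high cells of days 1 and 2. Col6a1 minus Col6a2 was 0.10, 0.09 and -0.07 in Ly6C high cells. Col4a1 minus Col4a2 was 0.27, 0.52 and 0.55 in Ly6C high cells, 0.55 and 0.56 in Ly6C low cells, and -1.64 in neutrophils, the 1 column where Col4a2 exceeded Col4a1. These pairs were within 2-fold of each other in all the macrophage columns.

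Other pairs differed more between columns. Col3a1 minus Col1a1, per kilobase, was 2.25, 1.26 and 0.77 in Ly6C high cells of days 1, 2 and 4, and 0.82 and 0.29 in Ly6C low cells, so type III was the higher of the pair in every macrophage column and by less at later times. Lamb1 minus Lamc1 was -4.60, -4.15 and -0.22 in Ly6C high cells, and -7.24 and -2.07 in Ly6C low cells. Of the 6 columns, Ly6C high cells of day 4 were the 1 in which these laminin partners were within 2-fold of each other.

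The comparisons that follow share columns and are not independent of each other. The first was of Ly6C high macrophages with neutrophils on day 1. There were 23 members with a log2 value of at least 5 in 1 of the 2 columns, of which 8 reached it in both. Of the 23, 19 were at least 2-fold higher in the macrophages, where 16.6% of the 11890 genes compared were, and 2 were lower, where 16.1% of all genes were. The median was 3.00, against 0.08 over all genes. Serpinh1 was higher by 4.46, Col4a1 by 4.51, Col3a1 by 4.38 and Fn1 by 3.35. In the same comparison 7 of 10 endothelial markers were higher and 1 was lower, and of the 3 at 5 in both columns 1 was higher. With the 8 members at 5 in both columns, 4 were higher and 2 lower.

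Between days 1 and 2 the Ly6C high columns were close over all genes, and fibrillar collagens were among those that differed. Of 31 members compared, 11 were at least 2-fold higher on day 2 (1.41% of 11232 genes) and none lower (1.1%). By class, 8 of 10 fibrillar or fibril-bound collagens were higher, with a median of 1.54, but none of 9 basement membrane genes, with a median of 0.23. At 5 or above on both days, 4 of 6 and none of 8 were. Col1a1 was higher by 2.82, Col1a2 by 2.24, Col3a1 by 1.83 and Col5a1 by 1.77. Col4a1 differed by 0.10, Lama4 by 0.12 and Nid1 by 0.37. The other 3 higher members were Fbn1, Postn and Lox, of which Fbn1 and Postn were just under 2-fold after quantile normalization (0.99 each).

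Of the markers of other cells that reached 5, few were 2-fold apart between these 2 columns. Most fibroblast markers were under 5 on both days and so were not compared. Over all 28 of them the median level was 2.63 on day 1 and 3.53 on day 2. Without Lrp1, Gsn and Igfbp4 it was 1.20 and 2.71. Of 10 fibroblast markers outside the matrix, among them Lrp1, Gsn and Igfbp4, 1 was higher and none lower, with a median of 0.25. Pdgfra, under 5 on both days, was higher by 0.73. Of 10 endothelial markers 1 was higher, with a median of -0.19, and of 6 pericyte and smooth muscle markers 1 was higher, with a median of -0.20. None of the 9, 8 and 5 genes of these lists at 5 or above on both days was 2-fold apart. Of the 11 higher members, 5 had a log2 value of at least 5 on both days. The remaining 6 were under 5 on day 1 and were compared only through their day 2 value.

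From day 2 to day 4 of Ly6C high cells 44 of 46 members were at least 2-fold higher, where 14.3% of 12348 genes were, and none was lower (2%). The median was 4.73, against 0.01 over all genes, and Fn1 and Lamc1 were the 2 that stayed within 2-fold. Of the 30 members at 5 or above on both days, 28 were higher. Their median was 4.32, against -0.04 over all genes at 5 or above on both days. The class medians were 5.25 for fibrillar collagens, 3.85 for basement membrane, 5.52 for proteoglycans, 5.59 for elastic fibres, 4.36 for the matricellular class and 4.46 for crosslinking. In the same order, 10 of 12, 9 of 10, 2 of 7, 2 of 6, 4 of 6 and 3 of 5 were at 5 or above on both days. The 2 proteoglycans were Bgn and Dcn, higher by 4.96 and 4.47. The 2 elastic fibre genes were Fbn1 and Fbln2, higher by 4.62 and 3.71. The medians of these 2 classes thus rest mostly on genes compared only through their day 4 value. Col1a1 was higher by 5.82, Postn by 6.47, Mfap4 by 7.37 and Cilp by 7.33, the last 2 from day 2 values of 0.26 and 2.05. The smallest of the 44 were Col4a2 and Col4a1, higher by 3.28 and 3.31.

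Of 28 other matrix genes outside the list, 26 were higher, with a median of 4.04, and 8 of the 10 at 5 or above on both days were. They included perlecan, encoded by Hspg2 (11.68 against 8.17), the microfibril gene Mfap2 (7.07 against 0.06) and Thbs4 (10.08 against 3.68). The marker lists of other cells had higher values on day 4 too. Of fibroblast markers outside the matrix 17 of 22 were higher and none lower (median 3.54), of endothelial markers 15 of 15 (2.71), and of pericyte and smooth muscle markers 11 of 11 (2.61). Of those at 5 or above on both days, 5 of 10 fibroblast, 9 of 9 endothelial and 6 of 6 pericyte and smooth muscle markers were higher. Pdgfra, under 5 on day 2, was higher by 4.19 and Cdh5, which encodes VE-cadherin, by 2.89. Macrophage markers were split, 3 of 15 higher and 4 lower, with Csf1r higher by 0.54.

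Set against Pdgfra, 28 of the 46 members were within 1 of its difference from day 2 to day 4, 16 exceeded it by at least 1 and 2 fell short by at least 1. Those exceeding it were 6 of 12 fibrillar or fibril-bound collagens, 4 of 7 proteoglycans and partners, 4 of 6 elastic fibre genes and 2 of 6 matricellular genes. None of the 10 basement membrane genes and none of the 5 crosslinking genes did. The 4 proteoglycans and partners, the 4 elastic fibre genes, Col16a1 and Cilp were under 5 on day 2, as was Pdgfra. These members were compared only through their day 4 value. Dcn, Bgn, Fbn1 and Fbln2, at 5 or above on both days, were within 1 of Pdgfra's difference. From day 1 to day 4, 44 members were higher (17.6% of 12391 genes) and 1, Fn1, lower (3.97%), with a median of 5.76. Fn1 was at -0.96 in place of -1.05 after median-ratio rescaling, just under 2-fold.

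**Figure D4:**
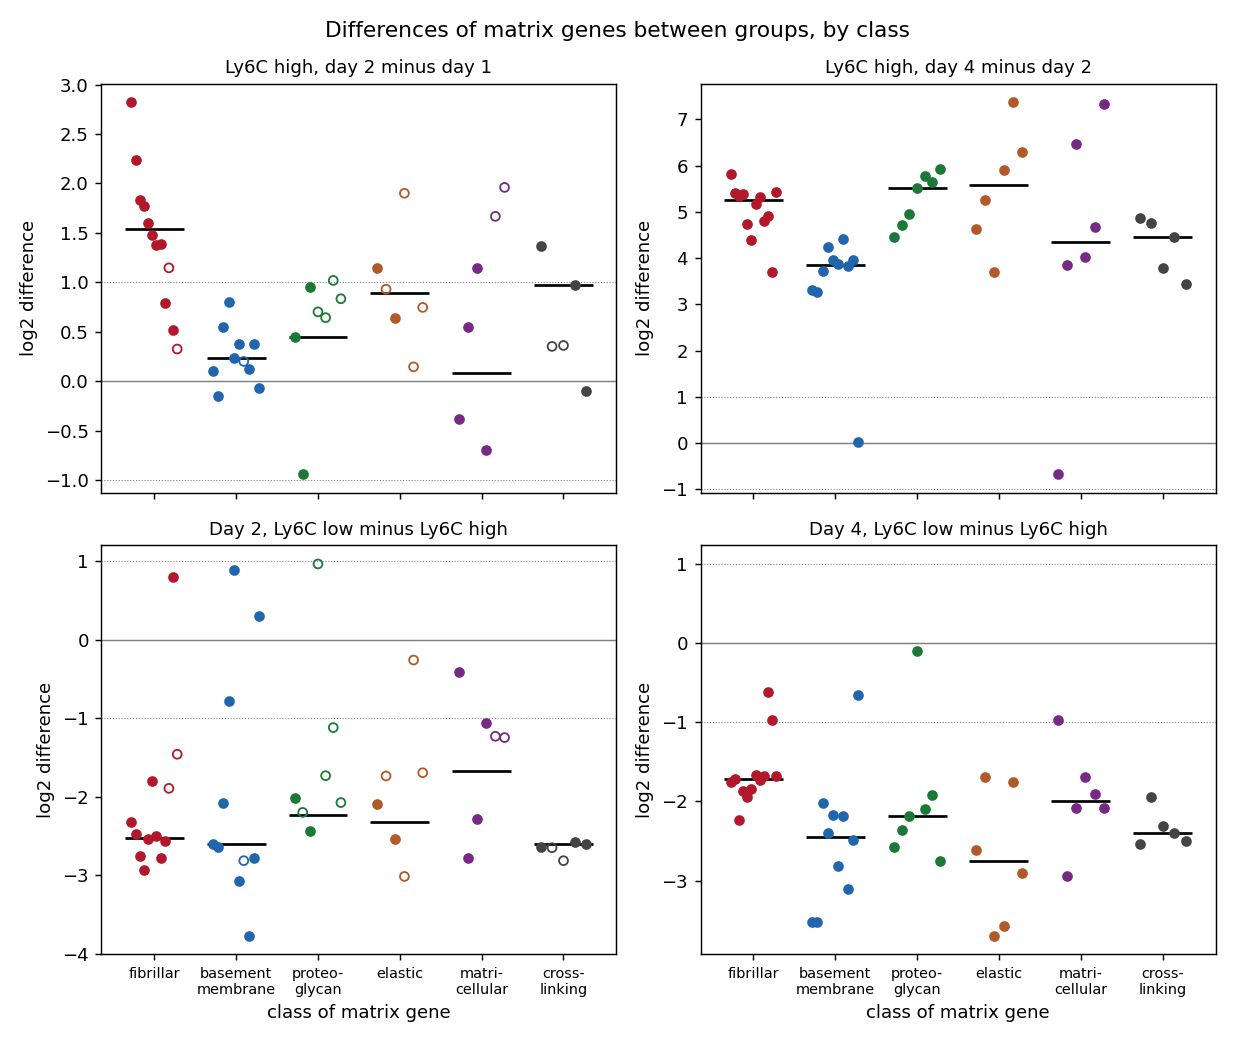
Log2 difference (vertical axis) of each matrix gene, by class (horizontal axis), in 4 comparisons named above the panels, whose vertical scales differ. Filled points are genes with a log2 value of 5 or more in either group, open points are genes below it in both, black bars are medians of the filled points and dotted lines mark 2-fold. From day 1 to day 2 the fibrillar median is 1.54 and the basement membrane median 0.23, while on day 4 the Ly6C low minus high medians are -1.72 and -2.44.

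On day 2, Ly6C low cells were compared with Ly6C high cells. Of 30 members compared, 25 were at least 2-fold lower in Ly6C low cells, where 4.03% of 11482 genes were, and none was higher (3.71%). The median was -2.52, against -0.03 over all genes. Lama4 was lower by 3.77, Nid1 by 3.07, Col5a1 by 2.94, Col3a1 by 2.75 and Col4a1 by 2.61. Fn1 was lower by 0.41, under 2-fold. Of the 15 members at 5 or above in both columns, 10 were lower.

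In the same Ly6C low column the markers of other cells were lower too, 6 of 10 for fibroblasts (1 higher), 6 of 9 for endothelium and 3 of 6 for pericytes and smooth muscle (1 higher). Of those at 5 or above in both columns, 2 of 6, 2 of 5 and 1 of 3 were lower. Pdgfra, under 5 in both, was lower by 2.37. Of 11 collagen biosynthesis enzymes 1 was lower, Bmp1, and none higher, with a median of 0.10, and none of the 10 at 5 or above in both columns was 2-fold apart.

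On day 4 all 46 members were at 5 or above in both columns, so none was compared through 1 column only. Ly6C low cells had 41 members at least 2-fold lower, where 8.93% of 12438 genes were, and none higher (2.44%). The other 5, Col12a1, Col14a1, Lamc1, Fmod and Fn1, were lower by 0.10 to 0.97. Fn1 was the upper end together with Col14a1, and after quantile normalization it was at -1.05, past 2-fold. The median was -2.09, against -0.03 over all genes. Every member was lower, apart from Fmod after quantile normalization, where it was at 0.15.

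The class medians differed on day 4. Fibrillar and fibril-bound collagens had a median of -1.72 and a range of -2.24 to -0.61. Basement membrane genes had a median of -2.44 and elastic fibre genes of -2.76. Col4a1 and Col4a2 were lower by 3.52 and 3.53, Fbln2 by 3.70, Eln by 3.57 and Lama4 by 3.11. Col1a1 was lower by 1.75 and Col6a1 by 1.66.

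Endothelial markers were lower for 14 of 15 in the same comparison, with a median of -4.49 and Cdh5 lower by 4.31. Fibroblast markers were lower for 18 of 22 (median -2.27), with Pdgfra lower by 2.31, and pericyte and smooth muscle markers for 9 of 11 (median -2.32, 1 higher), with Rgs5 lower by 3.69. Of those at 5 or above in both columns, 4 of 5 endothelial, 12 of 16 fibroblast and 6 of 8 pericyte and smooth muscle markers were lower. Of the members, 37 of 46 were within 1 of Pdgfra's difference. The 4 that were lower than that by at least 1 were Col4a1, Col4a2, Fbln2 and Eln. Of 12 myogenic markers 5 were compared and all 5 were higher in Ly6C low cells, but 4 of them reached 5 there only, among them Myog, a factor of differentiating myoblasts, at 5.98 against 3.39.

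**Figure D5:**
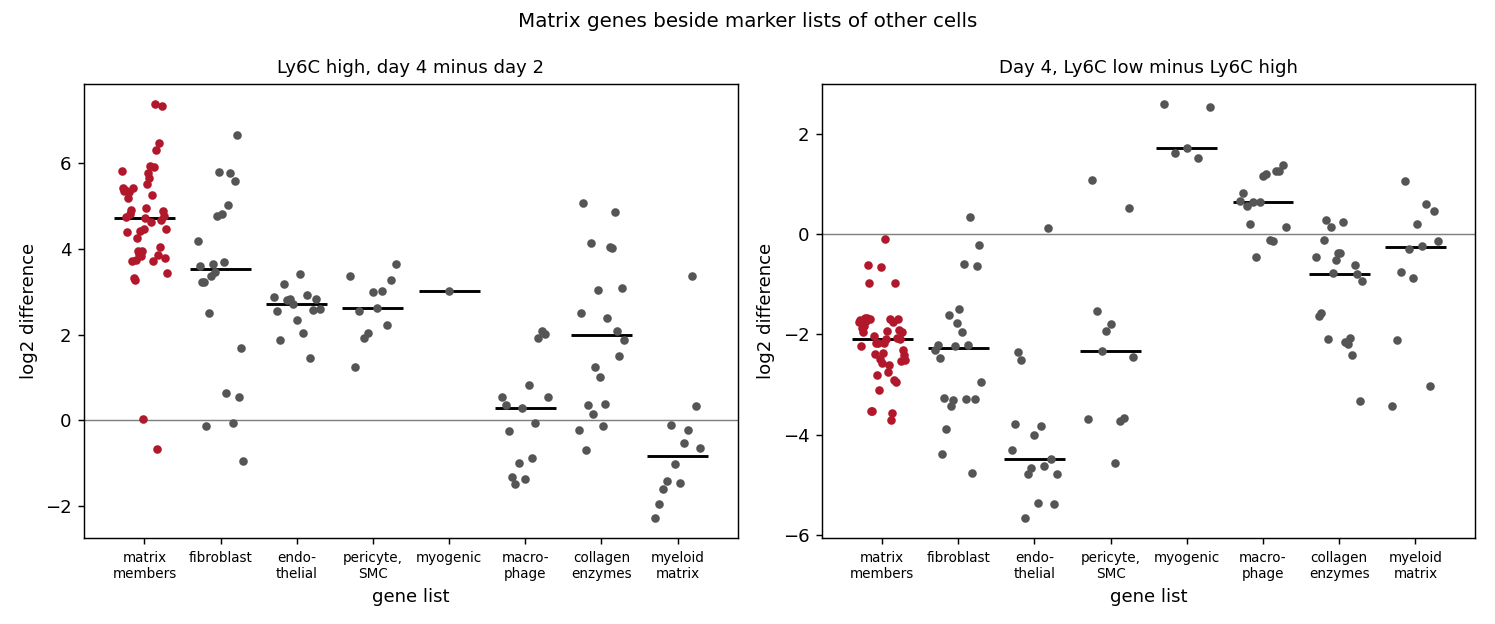
Log2 difference (vertical axis) of single genes in the 46 matrix members (red) and in 7 other lists (grey), with black bars for medians, between days 4 and 2 of Ly6C high cells (left) and between Ly6C low and high cells of day 4 (right). Only genes with a log2 value of at least 5 in 1 of the 2 groups are drawn, which favours a difference for genes that reach it in 1 group alone. The matrix median is 4.73 on the left, above those of fibroblast, endothelial and pericyte markers, and -2.09 on the right, where the endothelial median is -4.49.

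Within Ly6C low cells, 43 of 46 members were at least 2-fold higher on day 4 than on day 2 (9.23% of 11824 genes) and 1, Fn1, was lower (2.16%), with a median of 4.74. The remaining 2 were Col18a1, higher by 0.89, and Lamc1, lower by 0.93. Of the 15 members at 5 or above on both days, 12 were higher. Fibrillar and fibril-bound collagens had a median of 5.94 and basement membrane genes of 3.21. Postn was higher by 6.68, Col5a1 by 6.45, Col1a1 by 6.39 and Col12a1 by 6.18, against 2.40 for Col4a1 and 2.39 for Col4a2.

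Marker lists of other cells were set beside this. None of 5 endothelial markers was 2-fold apart between the Ly6C low columns, with Cdh5 at 6.25 against 6.08. Fibroblast markers numbered 12 higher and 2 lower of 18 (median 3.03), but none of the 4 at 5 or above on both days was 2-fold apart. These 4 include Lrp1, Gsn and Igfbp4, which were high in all 6 columns. All 14 that differed were thus compared through 1 column only. Without Lrp1, Gsn and Igfbp4 the median level of the whole list was 0.98 on day 2 and 5.62 on day 4. Of 8 pericyte and smooth muscle markers 5 were higher (median 1.73), and of the 3 at 5 or above on both days 2 were. Pdgfra, under 5 on day 2, was higher by 4.25. Relative to it, 9 of 12 fibrillar or fibril-bound collagens exceeded its difference by at least 1, while none of 10 basement membrane genes did and 5 of them fell short by at least 1. Of these 9 collagens, only Col1a1, Col1a2 and Col3a1 were at 5 or above on both days. The rest were, like Pdgfra, compared only through their day 4 value.

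The last comparison took the Ly6C low minus Ly6C high difference of day 4 less that of day 2. Of 46 members, 3 were at least 2-fold higher (0.967% of 12621 genes) and 7 lower (6.09%), with a median of -0.10, and the other 36 were within 2-fold. The 3 higher were Col12a1, Col5a1 and Col6a2, at 1.28, 1.07 and 1.06, and after quantile normalization none of them passed 2-fold. The 7 lower were Col18a1, Col14a1, Col15a1, Mfap4, Mfap5, Fbln2 and Fmod. Of the 15 members at 5 or above in every column compared, none was higher and 3 were lower, namely Col18a1, Col14a1 and Col15a1. The remaining genes named here were under 5 in Ly6C low cells of day 2. Col18a1 was at -3.06 and Col14a1 at -1.78, since both were higher in Ly6C low cells on day 2 and lower on day 4. Whether any of these differences exceeds the variation between animals cannot be known from these columns.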

How the data were processed

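The 46 members, their classes and the other gene lists were chosen with earlier results of these data known. The authors deposited log2 normalised reads, 1 column for each of the 6 groups, and the 17 samples were grouped by their titles. Per the submitters' processing notes, TopHat2 2.0.7, Cufflinks 2.0.2 and the mm10 build were used, with no role given. The sources used here give neither the normalization method nor the annotation. Low values, times the samples of the group, were checked for whole multiples of 1 unit. With base 2, 13.4 to 49.3% of them were (relative tolerance 1e-05), and with natural or decimal logarithms no unit was found. The columns were therefore read as means of log2 reads scaled per library, not per length.

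With 1 value per group the limma fit planned for single samples could not be run. Genes with a log2 value of at least 5 in 1 of the groups compared were used, and a difference of at least 1 was counted. No pseudocount was added. Every member is described by class. From another list at most 4 genes are named, from those highest on average or furthest apart, besides Csf1r, Ly6c2 and Pdgfra and genes that make up a count of 5 or fewer. Those that come first in neither, such as Hspg2, Cdh5, Tgfb1 and Ctgf, were chosen after their values were seen. Levels of single genes were compared with each other per kilobase of the longest principal transcript in GENCODE M21 (GRCm38, the assembly of mm10). Read shares, summed levels and list medians were not divided by length. Counting was tested on simulated data. Tools were Python 3.11.15, pandas 2.3.3, numpy 2.4.6 and matplotlib 3.10.9.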

Additional observations from a re-analysis of the deposited data

How the results depend on the processing

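No paired analysis was possible because the table holds 1 column per group, and for the same reason no replicate could be left out. Alternatives were pseudocounts of 1 and 5, no filter, a log2 minimum of 7, a minimum of 5 met in 2 or more of all 6 columns, median-ratio rescaling, quantile normalization, a 4-fold threshold and, chosen after seeing the data, a minimum of 5 in every group compared. Of the values so obtained, 171 stayed close to the value in the report and 37 moved. For counts, close meant within 1.5 times of the count in the report. For medians, it meant a shift on the log2 scale of less than 1.5-fold. A reversal could be seen only in medians of at least 1 in size, where none was found, since counts have no direction. Filters act by which members are compared. For Ly6C high cells against neutrophils, the 19 higher members became 35 with no filter and also with 5 in 2 groups, 6 with a minimum of 7 and 4 with 5 in every group. The median of 3.00 became 2.11, 2.11 and, with 5 in every group, 1.55, and 1 of the 2 lower members passed 4-fold. For day 2 against day 1 of Ly6C high cells, 11 higher became 4 with a minimum of 7, 2 at 4-fold and 5 with 5 in every group. For Ly6C low against high cells of day 2, 25 lower became 39 with no filter, 39 with 5 in 2 groups, 9 with a minimum of 7 and 10 with 5 in every group, and on day 4 41 became 26 at 4-fold. With 5 in every group, 44 higher became 28 (day 4 against day 2) and 21 (day 4 against day 1, median 4.33) in Ly6C high cells, and 43 became 12 (median 3.40) in Ly6C low cells. A pseudocount of 5 brought the medians of day 4 against day 1 to 5.02 and of the Ly6C low columns to 3.64, and quantile normalization brought the latter to 4.09. The 1 lower member, Fn1, was counted 0 times at 4-fold in both, 0 after rescaling in the former, and was 1 of 2 after quantile normalization in the latter. For the difference between subsets across days, 3 higher became 1 and 0 with pseudocounts of 1 and 5, and 0 after quantile normalization, at 4-fold and with 5 in every group. The 7 lower became 12 with a pseudocount of 5, 13 after quantile normalization, 1 at 4-fold and 3 with 5 in every group. Over all genes quantile normalization shifted the median by -0.14 and -0.15 for day 4 against days 2 and 1 of Ly6C high cells, and rescaling by -0.15 for Ly6C high cells against neutrophils. Of genes 2-fold apart, quantile normalization moved the higher share from 87.7 to 62.0% and from 81.6 to 56.9% for those 2 day comparisons, from 21.4 to 38.2% between subsets on day 4, from 81.1 to 66.7% within Ly6C low cells, and from 13.7 to 30.4% for the difference across days. No difference of a member of at least 2-fold reversed under either scaling. Depth per sample is unknown, and values under 5 are the least certain.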
